A study of Mus musculus with 8 samples.

Results

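The doublecortin family was examined in dorsal root ganglia (DRG), the ganglia that house the cell bodies of the somatosensory neurons and their glia. It comprises the kinases Dclk1, Dclk2 and Dclk3 and their paralogue Dcx, 4 of the 55414 genes listed, all found by symbol and Ensembl identifier. The members were chosen by a result of these same libraries, namely that the Dclk3 transcript was lower in AD1 OE, and the other 3 genes were set beside it as relatives. The Dclk3 values below are therefore a description of that choice, and no test is given for any member.

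RNA was sequenced from the DRG of late-gestation (E18.5) mouse embryos, in 2 groups of 4 libraries. AD1 OE embryos had the genotype AdvillinCre/+;Rosa26Dach1/+. Here the Advillin promoter drives Cre in sensory neurons, and Cre excises a stop sequence from the Rosa26 allele so that Dach1 is transcribed together with EGFP. Control embryos were Advillin+/+;Rosa26Dach1/+. Both groups thus carried the Rosa26 allele, and AD1 OE alone carried Cre. No group carried Cre without the Rosa26 allele. Effects of Cre itself, of the Advillin allele that carries it and of Dach1 therefore cannot be told apart. The Rosa26 line was kept on a mixed C57Bl/6J and CD1 background. Dach1 encodes a transcription factor that is normally lost from most sensory neurons as they mature. The study reports that in AD1 OE Dach1 was first restricted as in controls and later became broadly expressed again. The comparison asked how transcripts differ under this late expression. The labels describe the samples as neurons and glia and do not say whether replicates came from separate litters, so the errors given here measure the spread between these libraries.

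Doublecortin (Dcx) is a microtubule-binding protein of migrating and growing neurons, where its tandem doublecortin domains bind between the protofilaments and stabilize the lattice. Mutations of its X-linked human gene disturb the layering of the cerebral cortex. Dclk1 and Dclk2 join the same kind of microtubule-binding region to a serine/threonine kinase domain that resembles those of the calmodulin-dependent kinases, and Dclk1 also gives rise to shorter products with only the microtubule-binding or only the kinase part. Dclk3 is a kinase of the same family and is best known from the striatum.

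The sequence that sets the kinases apart from Dcx is the catalytic loop of the kinase domain, and it is shown here because it also shows how far the paralogues differ at the nucleotide level, which matters for counting reads. In the GENCODE M21 annotation of GRCm38 the loop was encoded by the 1 protein-coding transcript of Dclk3, by 8 of 11 of Dclk1, by 5 of 5 of Dclk2 and by 0 of 4 of Dcx. The 72 coding bases around it, 5′ to 3′, are given with capitals where a paralogue differs from Dclk3. The genomic span of each covers parts of 2 exons and the intron between them, and is chr9:111469262-111482635 on the plus strand for Dclk3, chr3:55489843-55500052 on the plus strand for Dclk1 and chr3:86799577-86805637 on the minus strand for Dclk2.
Dclk3: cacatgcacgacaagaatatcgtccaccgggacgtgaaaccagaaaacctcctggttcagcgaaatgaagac
Dclk1: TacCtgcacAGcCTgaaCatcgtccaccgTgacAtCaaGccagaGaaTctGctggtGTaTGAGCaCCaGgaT
Dclk2: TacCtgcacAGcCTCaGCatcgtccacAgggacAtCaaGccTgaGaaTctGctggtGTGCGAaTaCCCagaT
Dclk1 differed from Dclk3 at 25 of these bases and Dclk2 at 28. Over all annotated transcripts no word of 31 bases was shared between any pair of the 4 genes. The longest identical run that Dclk3 shared with a relative was 15 bases, with Dclk2, and the longest between any members was 23 bases, between Dclk1 and Dcx. No exon of Dclk3, Dclk2 or Dcx overlapped an exon of another annotated gene. In Dclk1, 114 bases (0.745% of its exons) lay opposite exons of Gm42609 and Gm21954 on the other strand.

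The libraries held between 22339059 and 44025625 counts, and levels are given as CPM, counts relative to a library size common to all samples and corrected for composition. The labels were checked with Dach1, which stood at 95.9 ± 5.28 CPM in AD1 OE and 32.6 ± 1.64 in Control (SD, n = 4 each). They were also checked with Avil, the Advillin gene, whose genotype differed between the groups, at 464 ± 12.0 and 892 ± 35.1 CPM. Y-linked transcripts were present in AD1 OE replicates 1, 2 and 4 and in Control replicate 4, and Xist in the other 4 libraries, so sex was unevenly divided between the groups and within-sex values are given below. All 10 pan-neuronal markers were detected, with a summed level of 10222 to 10835 CPM in AD1 OE against 10524 to 10948 in Control. Of 17721 genes that passed the expression filter, 316 (1.78%) were called lower in AD1 OE and 139 (0.784%) higher, 2.57% in either direction (quasi-likelihood test in edgeR, with a Benjamini-Hochberg adjusted p below 0.005 and a log2 fold change beyond 0.25 in either direction).

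Dclk3 (ENSMUSG00000032500, chromosome 9), the family member on which the choice rested, was far less abundant in AD1 OE than in Control. The counts were 758, 398, 412 and 407 in AD1 OE replicates 1 to 4 and 1014, 1608, 1158 and 1638 in Control replicates 1 to 4. In CPM these were 17.1, 17.7, 15.8 and 14.6 in AD1 OE against 45.6, 50.1, 45.5 and 46.3 in Control. The groups did not overlap, and the highest AD1 OE library was well below the lowest Control library. The group means were 16.3 ± 1.39 and 46.9 ± 2.17 CPM (SD, n = 4 each), which put AD1 OE at 34.8% of Control, or 2.87-fold lower. Over the pairs of an AD1 OE with a Control library this ratio ran from 29.2% to 39.0%. In edgeR this was a log2 fold change of -1.52 (standard error 0.07). By log2 fold change it was the 56th lowest of the 17721 genes that passed the filter, and its mean CPM lay at percentile 60.0 of the tested genes. In bulk tissue, fewer cells with the transcript and less of it per cell cannot be told apart. The study counted neurons stained for Islet1, Prdm12, TrkB and TrkC at E18.5 and reports appropriate numbers in AD1 OE. It did not count cells with Dclk3.

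The spread of Dclk3 between libraries was small in both groups. Its coefficient of variation was 8.51% in AD1 OE and 4.62% in Control, where counting error alone gives 4.50% and 2.72%. Among libraries with Xist, the single AD1 OE library was at 15.8 CPM and the 3 Control libraries averaged 47.1 CPM, a log2 ratio of -1.58. Among libraries with Y-linked transcripts, the 3 AD1 OE libraries averaged 16.5 CPM and the single Control library was at 46.3 CPM, a log2 ratio of -1.49. With each library left out in turn, the log2 fold change of Dclk3 stayed between -1.56 and -1.47.

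Dclk1 (ENSMUSG00000027797, chromosome 3), a kinase with a microtubule-binding region, did not separate the groups. It was at 453, 441, 440 and 423 CPM in AD1 OE and at 386, 433, 425 and 419 CPM in Control. The lowest library was Control replicate 1, and Control replicates 2 and 3 lay within the AD1 OE range. The means were 439 ± 12.4 and 416 ± 20.5 CPM (SD, n = 4 each), with a log2 fold change of 0.08 and a standard error of 0.05.

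Dclk2 (ENSMUSG00000028078, chromosome 3), the other kinase that binds microtubules, was at 122, 111, 130 and 127 CPM in AD1 OE and at 114, 115, 126 and 122 CPM in Control. The groups overlapped throughout, and both the lowest and the highest library were in AD1 OE. The means were 122 ± 8.29 and 119 ± 5.40 CPM (SD, n = 4 each), with a log2 fold change of 0.04 and a standard error of 0.05. The log2 ratio was 0.13 among libraries with Xist and -0.03 among those with Y-linked transcripts.

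Dcx (ENSMUSG00000031285, chromosome X), which has no kinase domain, was at 368, 361, 359 and 346 CPM in AD1 OE and at 329, 369, 387 and 340 CPM in Control. The AD1 OE libraries lay inside the range of the Control libraries, which were more spread out. The means were 358 ± 8.91 and 356 ± 26.5 CPM (SD, n = 4 each), and the log2 fold change of 0.008 was smaller than its standard error of 0.05. Among libraries with Xist the log2 ratio was -0.01, and among those with Y-linked transcripts it was 0.08. Of the 4 members, Dclk3 alone had groups that did not overlap, a separation that 7.26% of all tested genes showed with AD1 OE below, 5.69% with AD1 OE above and 13% in either direction. Because that contrast chose Dclk3, nothing is read from the count.

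**Figure D1:**
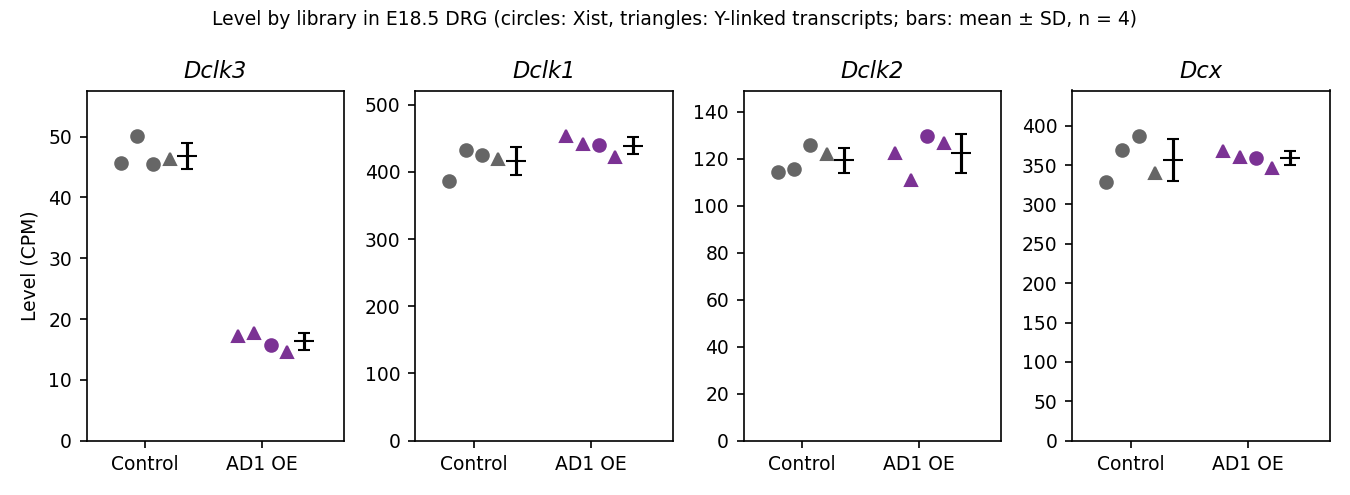
Level of the 4 members by library (y axes in CPM from 0, each panel on its own scale; grey Control, purple AD1 OE, circles for libraries with Xist, triangles for libraries with Y-linked transcripts, bars for mean ± SD, n = 4). The Dclk3 libraries form separate groups at 14.6 to 17.7 and 45.5 to 50.1 CPM, while the groups of Dclk1, Dclk2 and Dcx overlap.

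The members can be compared with each other only per length, so CPM was divided by the length of annotated exon in kilobases. On this scale Dcx and Dclk1 were the most abundant and did not differ beyond their spread in Control, at 28.2 ± 2.09 and 27.2 ± 1.34 CPM per kb (SD, n = 4 each). Dclk3 followed with 15.6 ± 0.721 and Dclk2 with 11.3 ± 0.512 CPM per kb. In AD1 OE the levels per length were 28.7 ± 0.813 for Dclk1, 28.3 ± 0.705 for Dcx, 11.6 ± 0.786 for Dclk2 and 5.43 ± 0.462 CPM per kb for Dclk3. The positions of Dclk3 and Dclk2 were thus exchanged. The ratio of Dclk3 to Dclk2 per length was 1.27 to 1.52 in the Control libraries and 0.406 to 0.563 in the AD1 OE libraries, and the ratio of Dclk3 to Dclk1 was 0.545 to 0.601 and 0.176 to 0.205.

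The family's make-up differed accordingly. Dclk3 accounted for 19.0% ± 0.888 of the summed level per length in Control and 7.33% ± 0.542 in AD1 OE (SD, n = 4 each). The sum of the 4 members was 77.3, 85.1, 85.4 and 81.3 CPM per kb in Control and 76.0, 73.7, 74.7 and 71.9 in AD1 OE. Without Dclk3 the sum was 66.7 ± 3.54 CPM per kb in Control and 68.6 ± 1.47 in AD1 OE, and the groups overlapped. These levels and shares depend on the transcript length that is assumed. By the longest transcript of each gene, Dclk3 accounted for 12.8% of the sum in Control and 4.71% in AD1 OE. Per kilobase of each gene's longest transcript, the Control levels were 52.2 for Dclk1, 39.3 for Dcx, 15.6 for Dclk3 and 14.8 CPM per kb for Dclk2, so that Dclk1 exceeded Dcx on this scale, while Dclk3 remained the lowest in AD1 OE, at 5.43 against 15.2 CPM per kb for Dclk2.

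**Figure D2:**
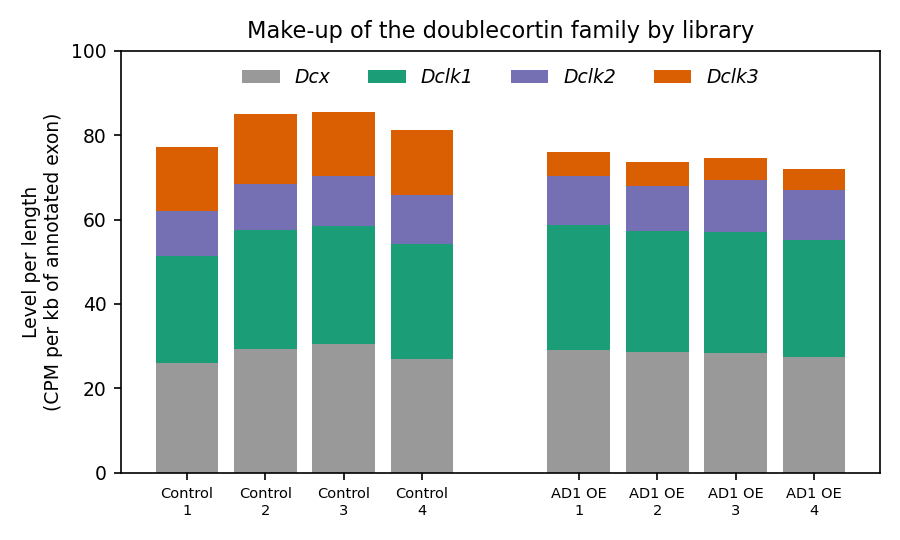
Summed level per length of the 4 members in each library (y axis in CPM per kb of annotated exon, from 0; stacked bars, from the bottom Dcx, Dclk1, Dclk2 and Dclk3). The Dclk3 segment is 15.6 CPM per kb on average in Control and 5.43 in AD1 OE, and the other 3 segments together are of similar height in both groups, 66.7 and 68.6 CPM per kb.

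The genes around the family were taken from 6 lists, covering other genes with doublecortin domains, microtubule-associated proteins, tubulins, motors with the Lis1 complex, kinases and phosphatases that act on doublecortins, and relatives of the calmodulin-dependent kinases. Of 134 genes tested, 3 were called lower (2.24%, against 1.78% of all tested genes) and 0 higher (against 0.784%). At an unadjusted p under 0.05 in edgeR, 30 of the 134 were lower, a larger share than the 10.3% of all tested genes. At the same threshold 11 were higher, against 8.28% of all tested genes. DESeq2 called 3 lower and 1 higher, the latter Kif26b, named after its values were seen, against 2.32% and 1.21% of all genes. With limma-voom 3 were called lower and 0 higher, against 1.8% and 0.784%. The median log2 fold change of the 134 genes was -0.04, beside 0.002 for all tested genes. The AD1 OE libraries lay all below Control for 20 of the genes (14.9%, against 7.26% of all tested genes) and all above for 9 (6.72%, against 5.69%).

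The 3 genes called lower were kinase relatives and a microtubule-binding protein. Camk4, a calmodulin-dependent kinase of the neuronal nucleus, was at 14.2, 13.2, 10.6 and 13.6 CPM in AD1 OE and 17.9, 22.5, 20.4 and 21.4 CPM in Control. Its groups did not overlap, and the change was -0.67 on the log2 scale (standard error 0.10, edgeR adjusted p = 0.0011), though without Control replicate 2 the adjusted p was 0.00541. Camkv, a vesicle-associated protein with a kinase-like domain, was at 24.9, 21.5, 22.8 and 23.5 CPM in AD1 OE against 31.4, 34.3, 35.6 and 36.6 CPM in Control, again without overlap. The change was -0.57 on the log2 scale (standard error 0.06, edgeR adjusted p = 0.00017), and Camkv was called in 16 of 16 alternatives. Eml1, which binds microtubules, was at 268, 266, 264 and 286 CPM in AD1 OE and 307, 329, 330 and 340 CPM in Control. Its change was close to the fold threshold (-0.27 on the log2 scale, standard error 0.04, edgeR adjusted p = 0.0027), and it lost the call in 7 of 16 alternatives, with an adjusted p of at most 0.0138. Each of the 3 differences was smaller in size than that of Dclk3.

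Among the other kinase relatives and their activators, Calm3, a calmodulin gene, was at 828 ± 32.3 CPM in AD1 OE against 901 ± 30.9 in Control (SD, n = 4 each). Its AD1 OE libraries lay below all Control libraries, but it was not called, with a log2 fold change of -0.12 and an edgeR adjusted p of 0.176. Calm2 overlapped between the groups (log2 fold change -0.03). The median of this list of 26 tested genes was -0.07.

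None of the 14 tested tubulins, the subunits of the microtubule itself, was called, although all 14 had a negative log2 fold change. The values ran from -0.17 to -0.04 with a median of -0.12. For 5 of the 14 the AD1 OE libraries lay below all Control libraries, a larger share than the 7.26% of all tested genes. The most abundant were Tubb5 (log2 fold change -0.06), the neuronal Tubb3 (-0.12) and Tubb2b (-0.07), whose groups overlapped.

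Microtubule-associated proteins had a median log2 fold change of 0.004 over 38 tested genes. The most abundant, Map1b, which binds microtubules in growing axons, averaged 2844 ± 104 CPM in AD1 OE against 2758 ± 216 in Control (SD, n = 4 each), and its groups overlapped. Stmn2, which regulates microtubule dynamics in axons, and Mapt, which encodes tau, had log2 fold changes of -0.03 and -0.02. Of 29 tested motor and Lis1-complex genes none was called in edgeR, with a median of 0.005, while DESeq2, the fit without the expression filter and the fit without Control replicate 2 called Kif26b higher (edgeR log2 fold change 0.27, adjusted p 0.0183). Their most abundant members Kif5a and Kif1b, kinesins of axonal transport, and Dync1h1, the dynein heavy chain, had log2 fold changes of 0.02, 0.05 and 0.07.

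The kinases and phosphatases that act on doublecortins had a median log2 fold change of -0.04 over 24 tested genes, and none was called. The most abundant were Mapk8ip3, a scaffold of JNK signalling (-0.05), the kinase Gsk3b (0.04) and Prkacb, a catalytic subunit of protein kinase A (-0.13, edgeR adjusted p = 0.239). Of the 3 tested relatives with a doublecortin domain, Dcdc2a averaged 6.13 ± 2.30 CPM in AD1 OE against 4.98 ± 0.669 in Control, and Dcdc2b at 3.05 ± 0.816 and 2.55 ± 1.01 CPM (SD, n = 4 each). Both overlapped between the groups. Dcdc5, annotated as a pseudogene, was below 1 CPM in every library.

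**Figure D3:**
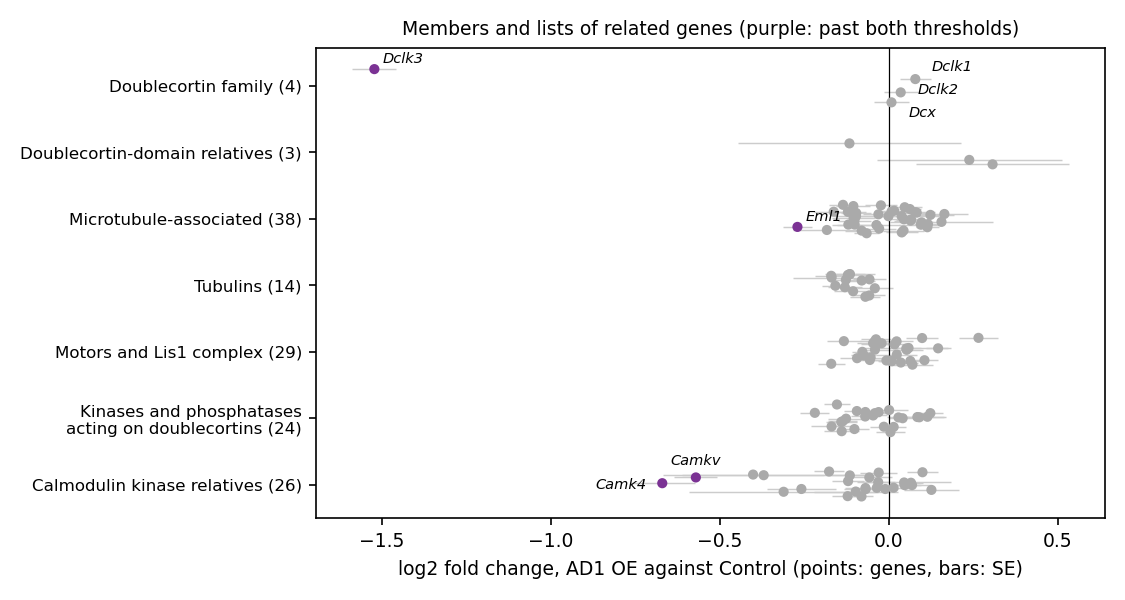
log2 fold change of AD1 OE against Control for the 4 members and the 134 tested genes of the 6 lists (x axis on the log2 scale; points for genes, bars for the standard error, purple for genes past both thresholds, numbers in brackets for genes tested; the vertical position within a row has no meaning). Dclk3 lies at -1.52, Camk4 at -0.67, Camkv at -0.57 and Eml1 at -0.27, and the 14 tubulins all lie between -0.17 and -0.04.

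The neighbours of Dclk3 on chromosome 9 were compared next, taking the 3 nearest tested genes on each side. None was called. On one side, Epm2aip1 had a log2 fold change of -0.02 and Trank1, the nearest gene tested on that side, of -0.37 (edgeR adjusted p = 0.227). Trank1 ranged from 7.53 to 9.47 CPM in AD1 OE and from 7.41 to 13.4 CPM in Control, so that its groups overlapped. On the other side the adaptor gene Stac, the nearest, had a log2 fold change of 0.02. Arpp21 and 2900079G21Rik, further off, were higher in all AD1 OE libraries, with log2 fold changes of 0.25 and 0.30 and edgeR adjusted p-values of 0.0466 and 0.197.

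The genes whose pattern over the 8 libraries was most like that of Dclk3 were found by the root mean square difference of log2 CPM, each gene centred on its own mean and 0.25 CPM added first. Genes named only after a clone were left out. Over the 13969 other genes whose mean reached 1 CPM the median difference was 0.765 on the log2 scale. The nearest were Layn, which encodes a hyaluronan receptor (0.129), the lysophosphatidic acid receptor gene Lpar3 (0.137), the serotonin receptor gene Htr2c (0.140), the growth factor gene Hgf (0.145), Nell1, which encodes a secreted protein (0.149), and the angiotensin receptor gene Agtr1b (0.164). The paralogues were no nearer to Dclk3 than that median, with differences of 0.798 for Dclk1, 0.786 for Dclk2 and 0.766 for Dcx. Nell1 was the nearest at a level similar to that of Dclk3, at 18.0, 19.2, 17.7 and 21.9 CPM in AD1 OE and 53.9, 56.3, 54.9 and 58.7 CPM in Control. Layn was at 3.08 ± 0.195 and 8.26 ± 0.162 CPM and Hgf at 3.07 ± 0.345 and 9.32 ± 1.03 CPM (SD, n = 4 each). All 6 genes were lower in every AD1 OE library than in any Control library, which follows from the measure that selected them.

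**Figure D4:**
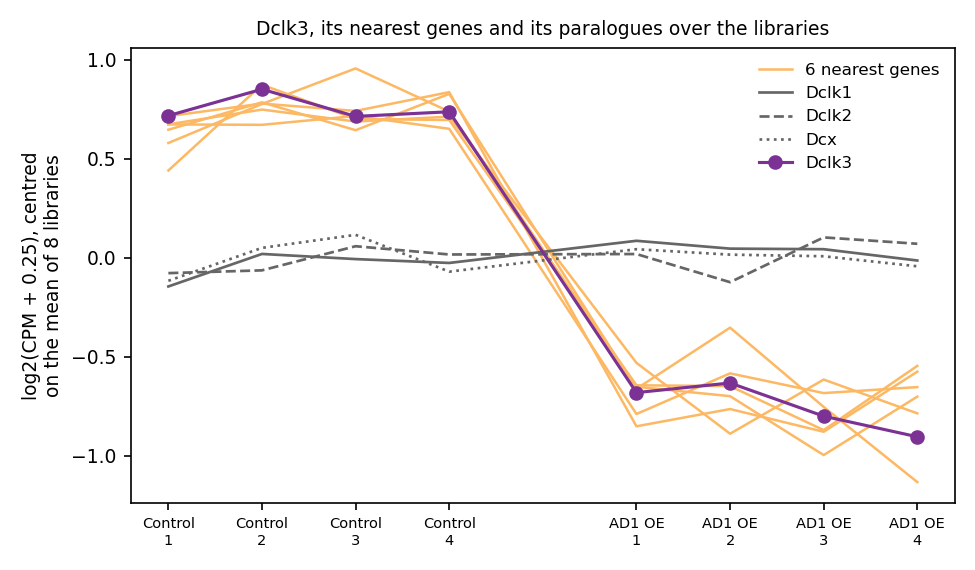
Pattern over the 8 libraries (y axis log2(CPM + 0.25) less the gene's own mean; purple Dclk3, orange its 6 nearest genes, grey the 3 paralogues). Dclk3 and the nearest genes step down between the Control and the AD1 OE libraries, and Dclk1, Dclk2 and Dcx stay near 0.

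Markers of cell types were set beside Dclk3 because the ganglia hold several kinds of neuron. None of the 10 pan-neuronal genes was called, and neither was any marker of glia, cycling cells, fibroblasts or endothelium. Of 16 tested nociceptor markers, 9 were called lower and 1 higher in edgeR, against 1.78% and 0.784% of all tested genes, and several of them are genes that the study itself took from these libraries. The peptidergic markers Calca and Tac1, which encode neuropeptides, had log2 fold changes of -0.70 and -0.88, with -0.50 for Adcyap1 and -1.31 for the opioid receptor gene Oprk1. The non-peptidergic markers Mrgprd (-0.77), Gfra2 (-0.58) and Lpar3 (-1.47) were also called lower, as was Mrgpra3, which had at most 2 counts in any AD1 OE library, whereas Plxnc1 was called higher (0.55). Scn11a and P2rx3, abundant members of this list named after their values were seen, were at 679 ± 42.9 and 446 ± 4.50 CPM in AD1 OE against 588 ± 46.1 and 399 ± 23.7 in Control (SD, n = 4 each). Their AD1 OE libraries lay above all Control libraries, and neither was called (edgeR adjusted p 0.0858 and 0.0642). The cold receptor gene Trpm8 had a log2 fold change of -1.20. The edgeR adjusted p of each called marker gene was at most 0.00023, apart from Tafa4 below (0.00063). Markers of other sensory neurons were called as well. Among low-threshold mechanoreceptors (LTMR), the C-LTMR list of 4 tested genes held Tafa4 (-0.38) as lower and Th (1.60) as higher, and the TrkB LTMR list of 6 held Mafa (-1.61) and Shox2 (-0.86) as lower. The proprioceptor list of 5 held Etv1 (-0.97) as lower. In the TrkB LTMR list, Colq (0.60, edgeR adjusted p 0.0124) lay above all Control libraries in AD1 OE, and 3 genes lay below. In the proprioceptor list, Ntrk3 (0.30, edgeR adjusted p 0.0171) lay above, and 2 genes lay below. Over all tested genes these shares were 5.69% above and 7.26% below. Colq and Ntrk3 were not called and were named after their values were seen. Tafa4 lost its call when sex was added to the fit (edgeR adjusted p 0.00538). The summed peptidergic level was 1053 to 1147 CPM in AD1 OE against 1355 to 1398 in Control, and the summed non-peptidergic level overlapped, at 2019 to 2173 and 1939 to 2203 CPM. The part of these neurons in the Dclk3 difference was not tested.

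Markers of neighbouring tissue were unevenly spread over the Control libraries. The 10 spinal cord genes summed to 2.27 to 5.09 CPM in AD1 OE and to 16.9, 2.09, 3.89 and 10.3 CPM in Control replicates 1 to 4, with no gene at 0 in all libraries and 0 of 6 tested genes called. The 8 sympathetic neuron genes summed to 2.80 to 4.74 CPM in AD1 OE and to 2.24 to 16.0 CPM in Control, highest in Control replicate 1. Dclk3 was highest, at 50.1 CPM, in Control replicate 2, where both sums were lowest, and it was at 45.6 CPM in Control replicate 1. The part of neighbouring tissue in the Dclk3 difference was not tested.

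**Figure D5:**
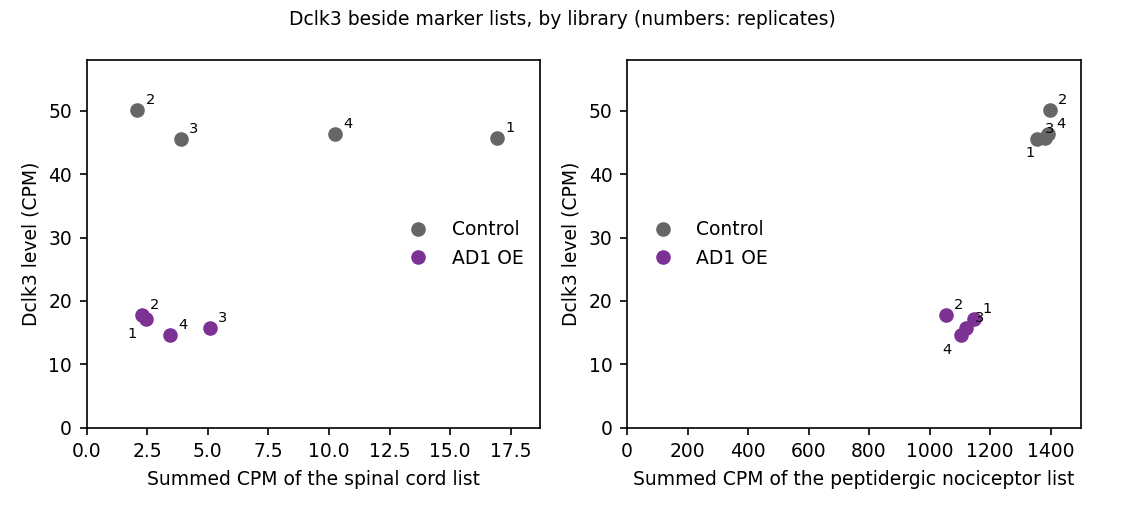
Dclk3 level (y axis, CPM from 0) against the summed CPM of the spinal cord list (left) and of the peptidergic nociceptor list (right) in each library (grey Control, purple AD1 OE, numbers for replicates). Control libraries had Dclk3 at 45.5 to 50.1 CPM and spinal cord sums of 2.09 to 16.9 CPM. On the right the groups are separate on both axes, for Dclk3 by the choice of the gene. The peptidergic list was written with earlier results of these data known, so nothing is read from the joint separation. The summed non-peptidergic level, not drawn, overlapped between the groups.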

How the data were processed

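The labels give 8 DRG libraries at E18.5, 4 AD1 OE and 4 Control. Poly(A) libraries were made with a stranded Illumina kit. Per the submitters' processing notes, tools were bcl2fastq 2.20.0.422, STAR 2.7.8a and featureCounts 2.0.1 with GRCm39. The authors deposited raw counts per Ensembl gene, neither normalized nor pooled. Whether counting used the strand is not given in the sources used here, so antisense reads of Dclk1 cannot be told apart.

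The tests used edgeR 4.0.16 under R 4.3.3 (filterByExpr, TMM scaling, quasi-likelihood F test, genotype as the only term, Benjamini-Hochberg adjustment over 17721 genes) at the study's thresholds, an adjusted p below 0.005 with a log2 fold change beyond 0.25 either way. The study used DESeq2, run here as an alternative (1.42.0), as was limma-voom (limma 3.58.1). CPM used TMM-scaled library sizes. The fits were tested on simulated data. Depth was 22339059 to 44025625 counts, and counting errors cover counting error only. Symbols (52133 identifiers), lengths, overlaps, neighbours and transcripts came from GENCODE M21 (GRCm38), which precedes the build of the counts. Of 228 list entries, 227 matched an identifier. The catalytic loop was sought in the 3 reading frames of each protein-coding transcript by its conserved residues. Replicates of a group differed by more than counting noise (chi-square per degree of freedom 4.34 to 12.2).

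Text names the members, Dach1 and Avil, called and the 3 most abundant genes of each pathway list, 3 neighbours of Dclk3 on each side, its 6 nearest genes, genes overlapping a member, and called markers of sensory neuron types. The members and lists were chosen with earlier results of these data known. Alternatives changed the tool, scaling, filter, thresholds, transcript length, replicate block, sex and libraries included. Some single genes that this rule names are not reported here.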

Additional observations from a re-analysis of the deposited data

Results flagged for a closer look

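A single library stood apart from the other 3 of its group in 5 of 106 groups of 4 libraries looked at, where chance flags about 1 in 20. Dclk3 was one of these: Control replicate 2 was highest, at 50.1 CPM, with the others between 45.5 and 46.3 CPM, which is far less than the distance to AD1 OE. Among the genes with a pattern like that of Dclk3, Hgf was lowest in AD1 OE replicate 3, at 2.56 CPM, with the others between 3.20 and 3.32 CPM. Control replicate 1 was the lowest library of its group for 3 genes. These were the Dclk3 neighbours Epm2aip1, at 211 CPM with the others between 227 and 229 CPM, and Stac, at 91.0 CPM with the others between 99.7 and 100.3 CPM, and the microtubule regulator Stmn2, at 2228 CPM with the others between 2372 and 2384 CPM.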

How the results depend on the processing

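Over 18 alternatives the log2 fold change ran from -1.58 to -1.47 for Dclk3, 0.05 to 0.10 for Dclk1, -0.03 to 0.13 for Dclk2 and -0.02 to 0.08 for Dcx. Of these values only that of Dclk2 among libraries with Xist (0.13) moved by more than the replicate spread. Per kilobase of longest transcript, levels in AD1 OE and Control were 55.2 and 52.2 CPM per kb for Dclk1, 15.2 and 14.8 for Dclk2, and 39.5 and 39.3 for Dcx.

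Of all genes, 476 were called lower and 271 higher without the expression filter, and 100 and 29 at an adjusted p under 0.05 with an absolute log2 fold change over 1. DESeq2 called 227 higher, and the sex score as covariate gave 84. Leaving out each library gave 211 to 309 lower and 78 (without AD1 OE replicate 1; 92 without Control replicate 3) to 142 higher. Of the 134 related genes, 1 to 3 were then called lower and 0 to 1 higher, the extremes of 1 and 1 without Control replicate 2. DESeq2 and the fit without the filter each called 1 higher, and an adjusted p under 0.05 with any fold 8 lower and 2 higher.

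Replicate numbers did not pair the libraries (correlations of same-numbered deviations -0.016, -0.0587, -0.0342 and 0.317). With the replicate block 348 genes were called, 333 of them among the 455, and Eml1 was not called (adjusted p 0.00655). No named gene that was called changed its sign, while some uncalled ones did, such as Calm2 (-0.05 to 0.006) and Dcdc2a (-0.06 to 0.49). A fit with a term for sex by genotype, added after the data were seen, is given no value, since 1 library stood alone on a side in each sex.

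Of the member values, those of Dclk3 in AD1 OE rested on the fewest counts, 398 to 758. Counting error alone gives 4.50% there, below the coefficient of variation of 8.51%.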
